A study of Mus musculus with 6 samples.

Results

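Fc gamma receptors are the surface proteins through which leukocytes bind the constant region of IgG antibodies, and 5 of the 34187 gene features counted here encode them or their signaling chain in the mouse. They were taken by name: Fcgr1, Fcgr3 and Fcgr4, which encode the activating receptors FcγRI (CD64), FcγRIII (CD16) and FcγRIV (CD16-2), Fcgr2b, which encodes the inhibitory receptor FcγRIIB (CD32B), and Fcer1g, which encodes the FcRγ chain. The libraries came from cells enriched for CD45, a leukocyte surface protein, with beads from subcutaneous 6694c2vTRP1 tumors, a mouse pancreatic cancer line grown from 250000 injected cells in C57BL/6 mice, and were prepared as 5′ single-cell RNA libraries in which 5 hashtag antibodies marked the mice of a group. From day 8 the mice received 2 intraperitoneal doses of PBS, of mono-IL10 (26 μg per mouse), a monomeric form of interleukin-10, or of IL10/2-Trikine (30.6 μg per mouse), in which the interleukin-10 module is joined to a binder that brings in the IL-2 receptor, and all tumors were taken on day 14. Every group carried the same tumor line and no other treatment, and the study's methods name male and female mice for this tumor model, without the sex or age of each mouse used here. Each treatment was captured as 1 library of 5 pooled mice, so treatment and library cannot be told apart, and both cytokine groups are compared with the same 5 PBS mice.

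The activating receptors hold no signaling motif of their own in the part inside the cell. They pair with FcRγ, whose tyrosine motif recruits the kinase Syk once antibody complexes gather the receptors, and the result is phagocytosis, cytokine release or killing of antibody-coated cells. FcγRIIB carries an inhibitory motif instead, draws the lipid phosphatase SHIP-1 to the membrane and dampens these signals. Macrophages and monocytes of the mouse carry all 4 receptors, neutrophils mainly FcγRIII and FcγRIV besides FcγRIIB, and NK cells FcγRIII only. FcRγ also serves several receptors that do not bind IgG, in NK cells among others.

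Of the 5 genes, 4 lie on chromosome 1, where Fcgr2b, Fcgr4 and Fcgr3 are direct neighbours among the protein-coding genes and Fcer1g lies farther along, while Fcgr1 is on chromosome 3. The 250 bases before the start site of the 4 receptor genes are shown because these genes moved together in macrophage-like cells, as given further on; the sequences are RefSeq promoters of build GRCm38.p6, read 5′ to 3′ on the strand of the gene, whereas the UMIs had been counted on GRCm39. They span chr1:171018676-171018925 (+ strand) for Fcgr4, chr3:96293970-96294219 (− strand) for Fcgr1, chr1:171059404-171059653 (− strand) for Fcgr3, which has 2 listed start sites of which the first was taken, and chr1:170976072-170976321 (− strand) for Fcgr2b. Capitals mark the STAT-type motif TTCNNNGAA and the PU.1-type motif GAGGAA on either strand (TTCCTC when read on the other strand).
Fcgr4: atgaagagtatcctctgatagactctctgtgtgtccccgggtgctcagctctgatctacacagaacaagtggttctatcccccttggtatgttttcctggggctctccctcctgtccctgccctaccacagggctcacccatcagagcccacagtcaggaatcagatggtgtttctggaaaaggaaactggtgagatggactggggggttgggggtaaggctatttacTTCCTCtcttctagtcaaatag
Fcgr1: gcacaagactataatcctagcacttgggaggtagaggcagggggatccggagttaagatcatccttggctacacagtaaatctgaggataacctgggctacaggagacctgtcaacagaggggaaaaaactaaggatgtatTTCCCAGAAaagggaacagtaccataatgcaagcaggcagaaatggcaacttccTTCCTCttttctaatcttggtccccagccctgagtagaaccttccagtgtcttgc
Fcgr3: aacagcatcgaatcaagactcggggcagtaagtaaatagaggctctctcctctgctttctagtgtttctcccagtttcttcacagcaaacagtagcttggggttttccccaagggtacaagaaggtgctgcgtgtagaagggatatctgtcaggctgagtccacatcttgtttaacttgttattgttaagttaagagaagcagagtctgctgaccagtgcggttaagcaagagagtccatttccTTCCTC
Fcgr2b: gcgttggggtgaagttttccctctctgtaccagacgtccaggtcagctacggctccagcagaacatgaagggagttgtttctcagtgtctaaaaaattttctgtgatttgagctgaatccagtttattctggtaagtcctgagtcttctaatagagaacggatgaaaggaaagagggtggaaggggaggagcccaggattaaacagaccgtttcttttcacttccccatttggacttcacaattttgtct
PU.1 is a transcription factor of the myeloid lineage, and STAT factors carry the signals of IL-10 and IL-2. The PU.1-type letters stood 22 bases before the start site of Fcgr4, 55 before that of Fcgr1 and 6 before that of Fcgr3, and the STAT-type letters stood only in Fcgr1, as TTCCCAGAA at 109 bases before the start; neither was found in the windows of Fcgr2b and Fcer1g. Among all 32851 promoters of the same length, 23.3% held GAGGAA and 7.02% held TTCNNNGAA. A match describes letters and shows no binding.

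The 3 libraries held 30528 to 55504 cell barcodes, of which 24060 to 46104 had at least 1000 genes and at most 10% mitochondrial UMIs, and shared 250 to 441 of these barcodes pairwise. Hashtags marked 8.50% to 12.2% of the cells as doublets, which were left out, and gave no mouse for 17.9% to 32.1%, the highest share in the IL10/2-Trikine library. Macrophage-like, monocyte-like, neutrophil-like and dendritic-like cells were clusters named from fixed marker lists in a clustering that left out the 5 genes, and NK cells and T cells were those of the deposited annotation. There were 387 to 2221 macrophage-like, 28 to 208 monocyte-like and 29 to 166 dendritic-like cells per mouse, 34 to 124 neutrophil-like cells per PBS or mono-IL10 mouse but only 0 to 12 per IL10/2-Trikine mouse, of which 2 mice with at least 10 were used, and 10 to 69 NK cells, with 1 mono-IL10 mouse of 9 cells left out. Despite the enrichment, 4856 to 10638 cells per treatment lay in tumor-epithelial-like clusters. The median depth of a macrophage-like cell was 5238.5 UMIs with PBS, 6286.5 with mono-IL10 and 2841 with IL10/2-Trikine.

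Levels are given in CPM, the UMIs of a gene scaled to a total of 1000000 UMIs of all genes, summed over the cells of a class in 1 mouse, so each value is a share of the class's RNA and the replicate is the mouse. A 5′ UMI tags the start of a molecule, so the values are not scaled by gene length. The sequences of Fcgr2b and Fcgr3 are alike at their 5′ ends: of the windows of 50 bases in their transcripts, 10.2% of those of Fcgr3 and 4.48% of those of Fcgr2b also occurred in the other gene (16.9% and 10.5% within the first 500 bases), and reads in these stretches cannot be assigned with certainty. Fcgr1, Fcgr4 and Fcer1g shared no such window with another gene.

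The names were checked against the marker lists. The 8 neutrophil markers summed to 29513 CPM or more in every mouse's neutrophil-like cells and to at most 3033 in the other classes, and the 7 conventional dendritic cell markers to 441 or more in dendritic-like cells against 246 or less elsewhere. The 11 macrophage markers summed to between 20965 and 31009 in macrophage-like cells. The monocyte-like class was a single cluster led by Ccl24, Chil3, F10 and Ccr2; its 7 monocyte markers summed to 1082 to 2137 against 351 to 773 in macrophage-like cells, but T cells (797 to 2272) and the tumor-epithelial-like cells (1788 to 2249) reached as high, and its macrophage markers summed to 4781 to 9415, so the monocyte list alone did not set it apart. Macrophage markers summed to 118 to 509 in NK cells, where Adgre1 was at 0.

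**Figure D1:**
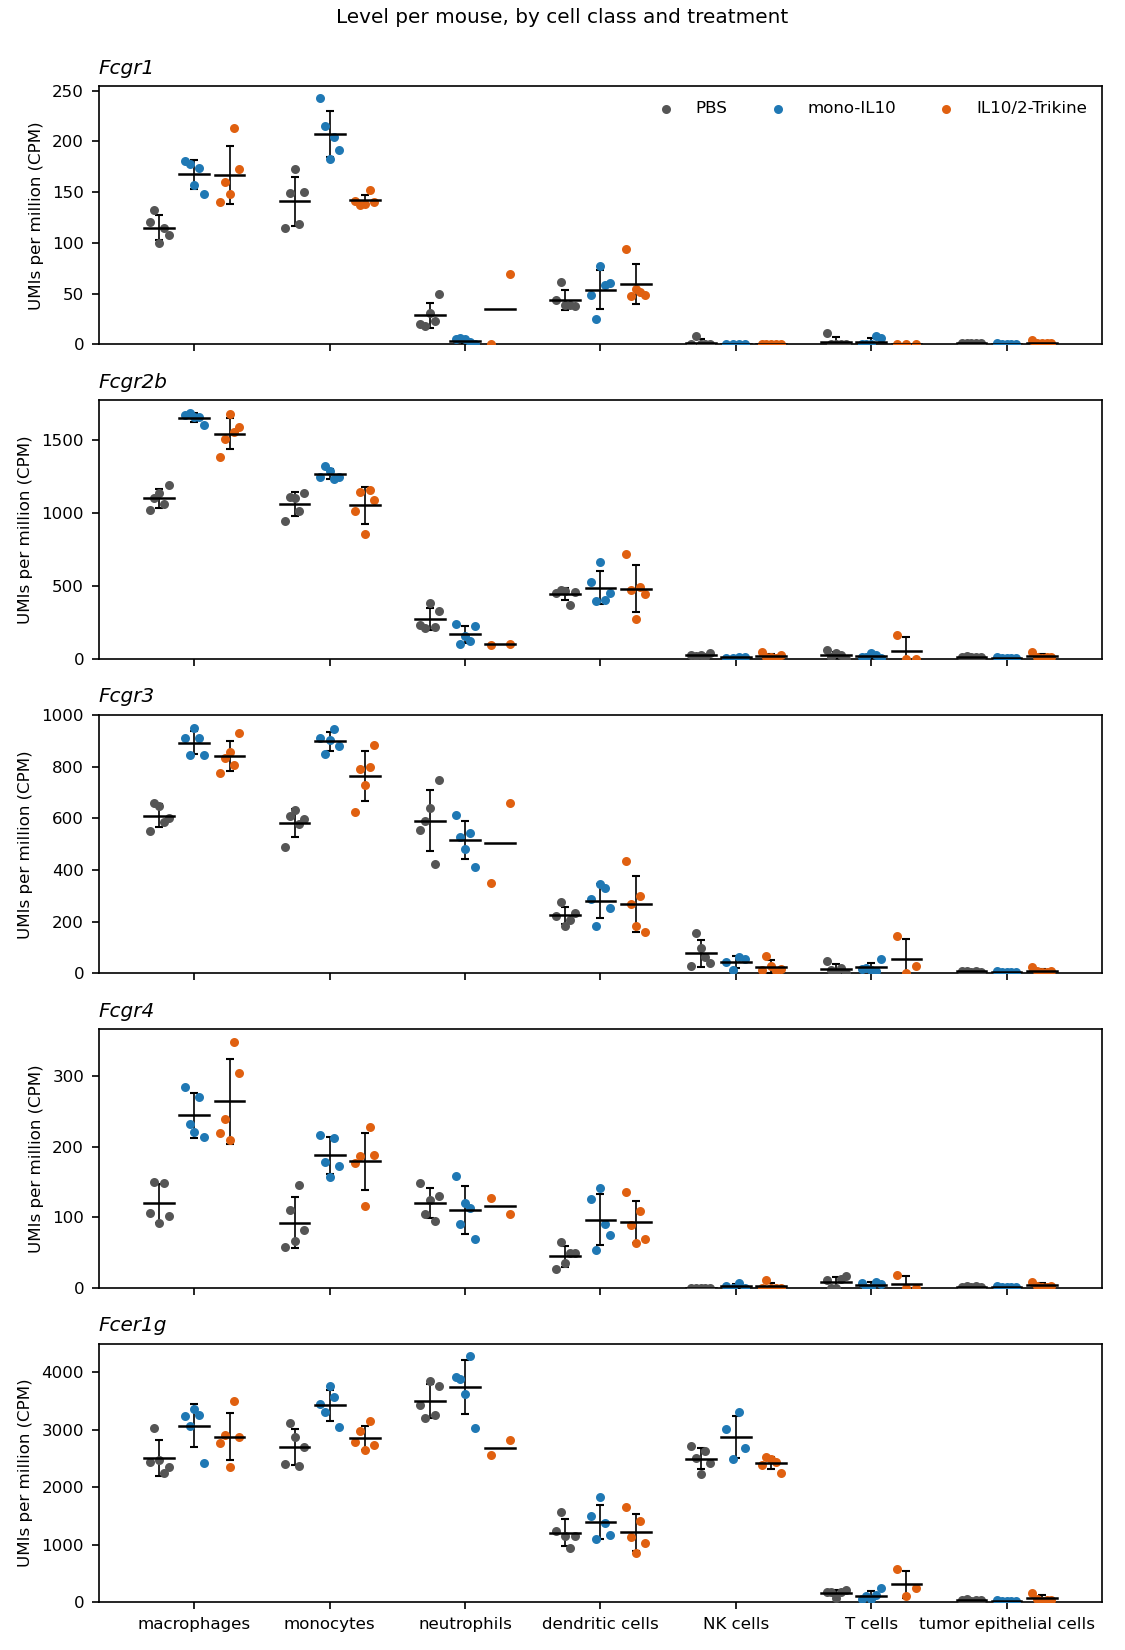
Level of the 5 genes (vertical axis, CPM) in each mouse (points) by cell class and treatment, with bars at the mean and lines of 1 SD (none for the 2 IL10/2-Trikine mice with neutrophil-like cells). T cells and tumor-epithelial-like cells are shown for comparison. The 4 receptors stood lowest in NK, T and tumor-epithelial-like cells, and in macrophage-like cells the points of both cytokine groups lay above all 5 PBS points for every receptor.

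Fcgr4, the receptor that binds mouse IgG2a and IgG2b with intermediate affinity, had the largest difference from PBS of the 5 genes in macrophage-like cells. It stood at 107, 150.2, 92.1, 149 and 102 CPM in the 5 PBS mice, at 285, 232, 221, 270.3 and 213 CPM in the mono-IL10 mice and at 219, 239, 209, 348 and 305 CPM in the IL10/2-Trikine mice. Every cytokine-treated mouse was therefore above every PBS mouse, while the ranges of the cytokine groups overlapped each other. Against PBS the level was 2.18 times as high with IL10/2-Trikine (95% interval 1.75 to 2.72) and 2.15 times as high with mono-IL10 (1.74 to 2.67), which in log2 units was 1.13 (SE 0.16) and 1.11 (SE 0.16), with adjusted p = 0.000108 and 4.998e-05 by the edgeR quasi-likelihood test over all genes with Benjamini-Hochberg adjustment. Between the cytokines the edgeR interval of the ratio ran from 0.817 to 1.26.

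Fcgr1, the high-affinity receptor, was at 121, 132, 99.6, 115 and 108 CPM in the macrophage-like cells of the PBS mice. It was at 181, 178, 157, 174 and 148 CPM with mono-IL10 and at 140.3, 159.5, 148, 213 and 173 CPM with IL10/2-Trikine. Both cytokine groups were above the PBS range without overlap. The log2 difference from PBS was 0.62 (SE 0.10, adjusted p = 0.00023) with mono-IL10 and 0.52 (SE 0.11, adjusted p = 0.00277) with IL10/2-Trikine in the edgeR test.

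Fcgr3, a low-affinity activating receptor, was at 552, 659.8, 649.8, 588 and 601 CPM in macrophage-like cells of PBS mice. With mono-IL10 it was at 913, 847, 952, 911 and 846 CPM, and with IL10/2-Trikine at 776, 834, 859, 806 and 929 CPM. Again no cytokine-treated mouse fell into the PBS range. The log2 differences by edgeR were 0.63 (SE 0.07, adjusted p = 7.13e-06) and 0.45 (SE 0.08, adjusted p = 0.000406). Restricted to cells with at least 2000 genes, the IL10/2-Trikine difference of Fcgr3 was 0.25 (adjusted p = 0.0558) and that of Fcgr1 was 0.24 (adjusted p = 0.306), neither past the threshold in edgeR.

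The inhibitory receptor gene Fcgr2b rose in the same cells as the activating ones. It was at 1021, 1103, 1136, 1063 and 1191 CPM with PBS, at 1674, 1684, 1658, 1658 and 1605 CPM with mono-IL10 and at 1388, 1509, 1682, 1555 and 1593 CPM with IL10/2-Trikine. The PBS mice were below all others, and the mono-IL10 mice lay within a narrow band. The difference from PBS was 0.67 in log2 units with mono-IL10 (SE 0.06, adjusted p = 6.95e-07) and 0.48 with IL10/2-Trikine (SE 0.06, adjusted p = 5.76e-05) by edgeR. IL10/2-Trikine was lower than mono-IL10 by a log2 difference of −0.19 (SE 0.06), which missed the threshold in edgeR (adjusted p = 0.0623) and passed it in DESeq2 (adjusted p = 0.0194) and, at −0.44, in edgeR on cells with at least 2000 genes (adjusted p = 0.000146). With the same weight for each cluster in every mouse it was −0.05 (exact permutation test, adjusted p = 0.332).

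Fcer1g, the shared signaling chain, overlapped between groups. Macrophage-like cells held 2432, 3033, 2475, 2251 and 2351 CPM with PBS, 3234, 3063, 3356, 3247 and 2423 CPM with mono-IL10 and 2768, 2903, 2357, 3505 and 2872 CPM with IL10/2-Trikine. Of the mono-IL10 mice 4 exceeded all PBS mice, and of the IL10/2-Trikine mice 1 did. The edgeR log2 difference from PBS was 0.37 (SE 0.12, adjusted p = 0.0248) with mono-IL10 and 0.19 (SE 0.12, adjusted p = 0.292) with IL10/2-Trikine. The mono-IL10 call was lost when PBS mouse 1, 3, 4 or 5 or mono-IL10 mouse 1, 3 or 4 was left out, with adjusted p up to 0.0712.

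Counted over the 5 genes in macrophage-like cells, 4 were higher with IL10/2-Trikine than with PBS, where 16.9% of the 12246 genes tested were called in either direction, and 5 were higher with mono-IL10, where 25.0% were called. Their median log2 differences were 0.48 and 0.63, beside medians of 0.00 and −0.01 over all genes. No share of all genes whose mice did not overlap is given beside that of the members, in the class or by cluster. Non-overlap with PBS is therefore not shown to be particular to these genes. Between IL10/2-Trikine and mono-IL10, where 10.7% of genes were called, edgeR called 0 of the 5, with 2 at an unadjusted p under 0.05 and 1 called by DESeq2. The summed macrophage markers moved with the receptors, from 20965 to 27398 CPM with PBS to 27138 to 31009 CPM with mono-IL10 and 26499 to 30868 CPM with IL10/2-Trikine. Between PBS and IL10/2-Trikine, T cell markers in these cells also went from 19.6 to 35.8 CPM to 40.6 to 75.3 CPM and NK markers from 6.67 to 13.4 CPM to 15.9 to 52.5 CPM, without overlap, and the mean of the monocyte markers from 439 to 613 CPM. The part of these markers in the result was not tested.

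**Figure D2:**
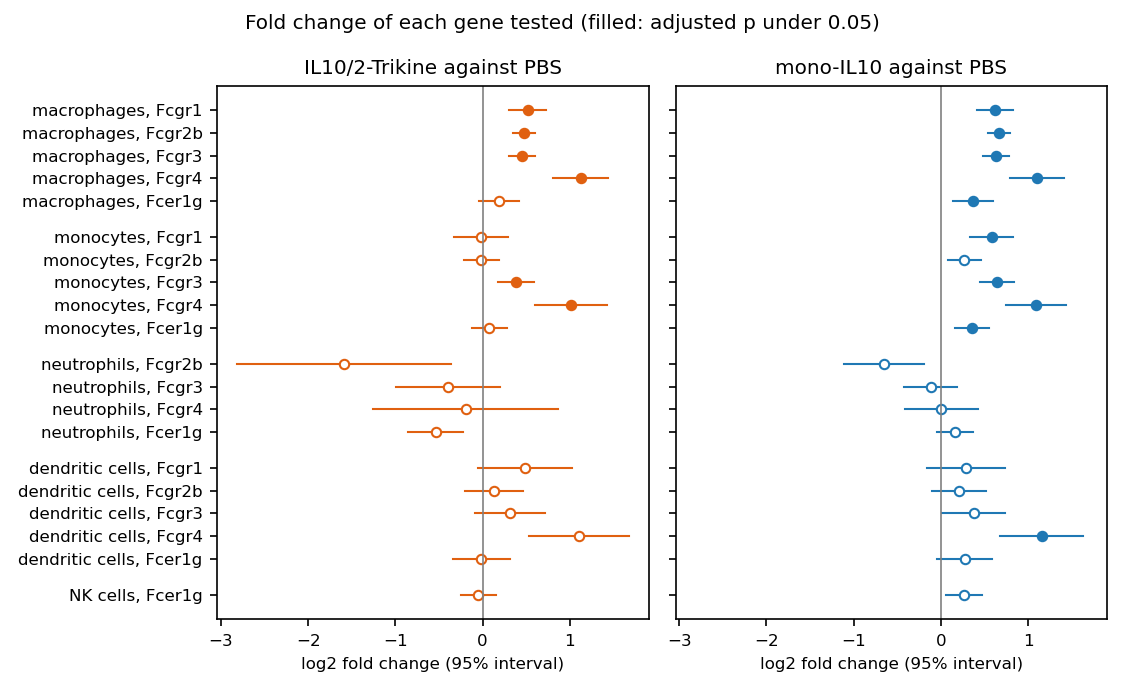
Log2 fold change of each gene (horizontal axis, with approximate 95% intervals) in each class, for IL10/2-Trikine against PBS and for mono-IL10 against PBS. Filled points had an adjusted p under 0.05 in edgeR. Fcgr4 lay near a log2 change of 1 against PBS in macrophage-like, monocyte-like and dendritic-like cells, and Fcgr2b in neutrophil-like cells lay below 0 with open points.

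The share of cells with at least 1 UMI of a gene was compared after each cell had been thinned to 2000 UMIs, since depth differed between libraries. Among macrophage-like cells of that depth, 19.5% ± 3.68 (SD, n = 5 mice) held a UMI of Fcgr4 with PBS, 33.2% ± 3.15 with mono-IL10 and 36.0% ± 5.25 with IL10/2-Trikine. For Fcgr1 the shares were 19.6%, 27.3% and 27.5%, for Fcgr3 66.0%, 77.1% and 77.9%, and for Fcgr2b 83.8%, 92.9% and 90.9%. Each of these 8 differences from PBS gave the smallest p that an exact permutation test of 5 against 5 mice allows, 0.00794, and an adjusted p of 0.0430 over 65 tests. Between the cytokines, the share of Fcgr2b was lower with IL10/2-Trikine than with mono-IL10, at the same exact permutation p and adjusted p. Thinned to 3000 UMIs instead, 0 of the share tests passed after adjustment, against 12 at 2000. Over 65 tests none at the smallest p could pass alone, so both counts depend on how many tests share it. Thinning left out 309 PBS, 132 mono-IL10 and 765 IL10/2-Trikine cells. As counted, the IL10/2-Trikine shares of 3 receptors ran opposite to their CPM: 37.8% against 41.5% with PBS for Fcgr1, 85.7% against 87.2% for Fcgr3 and 95.01% against 95.65% for Fcgr2b. In tumor-epithelial-like cells at the same thinned depth, 0.289% to 0.512% held a UMI of Fcgr4 and 1.51% to 2.84% a UMI of Fcgr2b. These cells should lack both, but they were deeper before thinning (median 10066 to 34973.5 UMIs). Whether the same background holds for cells as shallow as the macrophage-like ones was not tested.

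Macrophage-like cells formed 12 clusters, and the receptors were higher in nearly all of them. The cluster means of Fcgr1, Fcgr2b and Fcgr3 exceeded PBS in 12 of 12 clusters with either cytokine, and those of Fcgr4 and of Fcer1g in 12 with IL10/2-Trikine and 11 with mono-IL10. The mice did not overlap with PBS in 9 and 8 clusters for Fcgr4, 8 and 8 for Fcgr3, 6 and 9 for Fcgr2b, 1 and 4 for Fcgr1 and 0 and 0 for Fcer1g, with IL10/2-Trikine and mono-IL10 respectively. The 12 clusters were no replicates, since they came from the same mice. For all genes, no count of clusters with a higher mean is given beside those of the members. The directions are therefore not shown to be particular to these genes. Fcgr4 ran from 53.2 CPM ± 24.0 (SD, n = 5) in the PBS mice's cluster led by Mmp12 and Lpl, genes of matrix breakdown and lipid uptake, to 216 CPM ± 33.5 in the cluster led by Cxcl9 and Acss1 and 300.5 CPM ± 99.0 in the cluster led by the interferon-induced genes Rsad2 and Ifit2. In the Cxcl9 cluster it reached 405 CPM ± 47.9 with mono-IL10 and 532 CPM ± 147 with IL10/2-Trikine. In the interferon cluster it was 283 CPM ± 76.5 with mono-IL10, the only cluster in which the mean was below PBS, and 351 CPM ± 94.1 with IL10/2-Trikine.

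**Figure D3:**
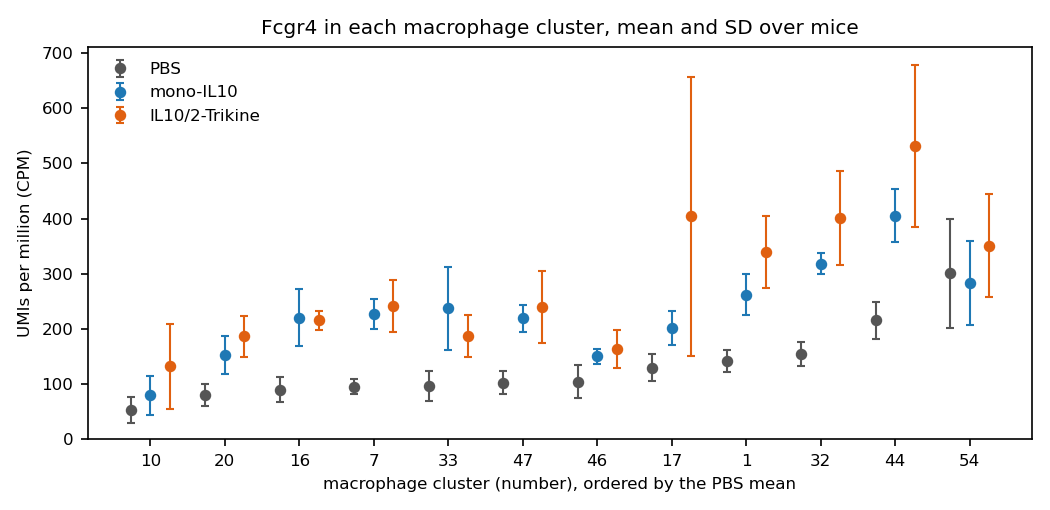
Mean level of Fcgr4 (vertical axis, CPM, with 1 SD over mice) in the 12 macrophage-like clusters, ordered by the PBS mean and colored by treatment. The IL10/2-Trikine mean was above the PBS mean in all 12 clusters and the mono-IL10 mean in 11.

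The clusters' shares of the class differed between treatments: the largest held 17.5% of PBS cells (cluster 17, led by St18 and Blnk), 25.7% of mono-IL10 cells (cluster 47, led by Nrg1 and Pf4) and 21.9% of IL10/2-Trikine cells (cluster 20, led by Pf4 and Gpnmb). With each of 10 clusters that all groups filled given the same weight in every mouse, Fcgr4 was still 1.19 log2 units higher with IL10/2-Trikine and 0.96 higher with mono-IL10 (exact permutation test, adjusted p = 0.0170 each). By the same fixed weights Fcgr3 was higher by 0.37 and 0.48 and Fcgr2b by 0.36 and 0.41 (adjusted p = 0.0170 in each exact test), and Fcgr1 by 0.37 (adjusted p = 0.0446) and 0.40 (adjusted p = 0.0170). Fcer1g with mono-IL10 was higher by 0.28 in this exact test and no longer past the threshold (adjusted p = 0.0794).

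In monocyte-like cells the receptors parted. Fcgr4 stood at 58.2, 111, 65.8, 145 and 81.8 CPM in the PBS mice, at 217, 178, 157, 212 and 173 CPM with mono-IL10 and at 177, 187, 116, 228 and 187 CPM with IL10/2-Trikine. All mono-IL10 mice and 4 of the 5 IL10/2-Trikine mice were above the PBS range. The log2 differences from PBS by edgeR were 1.09 (SE 0.18, adjusted p = 9.47e-05) and 1.01 (SE 0.21, adjusted p = 0.00367). When the summed UMIs of all mice were thinned to the smallest total of the class, both were smaller, 0.65 (adjusted p = 0.183) and 0.59 (adjusted p = 0.235) by edgeR, and no longer past the threshold.

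Fcgr1 in monocyte-like cells was at 115, 149, 173, 119 and 149.9 CPM with PBS, at 242, 215, 183, 205 and 192 CPM with mono-IL10 and at 141, 137, 139, 152 and 140.5 CPM with IL10/2-Trikine. The mono-IL10 mice were above both other groups without overlap, and the IL10/2-Trikine mice lay inside the PBS range. The edgeR difference from PBS was 0.58 with mono-IL10 (SE 0.12, adjusted p = 0.00212) and −0.02 with IL10/2-Trikine (SE 0.16, adjusted p = 0.979), and IL10/2-Trikine was below mono-IL10 by a log2 difference of −0.60 (SE 0.15, adjusted p = 0.0312). DESeq2 gave that last comparison an adjusted p of 0.0549, and leaving out IL10/2-Trikine mouse 1, 2 or 5 or mono-IL10 mouse 1 or 2 raised the edgeR value to as much as 0.111. With summed UMIs thinned to the smallest total of the class, neither call held in edgeR: mono-IL10 differed from PBS by 0.46 (adjusted p = 0.288) and IL10/2-Trikine from mono-IL10 by −0.68 (adjusted p = 0.101). In thinned cells 23.4% held a UMI of Fcgr1 with PBS, 34.2% with mono-IL10 and 23.6% with IL10/2-Trikine, and mono-IL10 differed from each of the others with an exact permutation p of 0.00794 (adjusted p = 0.0430).

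Fcgr3 was at 491, 608, 634, 578 and 596 CPM in the monocyte-like cells of PBS mice, at 913, 849, 903, 946 and 881 CPM with mono-IL10 and at 623, 791, 729, 797 and 884 CPM with IL10/2-Trikine. Mono-IL10 lay above PBS without overlap and IL10/2-Trikine overlapped it by 1 mouse. On average 67.6% of thinned cells held a UMI of Fcgr3 with PBS, 80.4% with mono-IL10 and 76.3% with IL10/2-Trikine. The exact permutation tests of these shares against PBS gave adjusted p = 0.0430 for mono-IL10 and 0.229 for IL10/2-Trikine. The edgeR differences were 0.64 (SE 0.10, adjusted p = 4.32e-05) and 0.39 (SE 0.11, adjusted p = 0.0291), the latter not past the threshold without IL10/2-Trikine mouse 2, 4 or 5 or PBS mouse 1 or 4, when the adjusted p reached 0.114, nor without the filter on low counts (adjusted p = 0.390).

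Fcgr2b ran from 948 to 1141 CPM in monocyte-like cells with PBS, from 1236 to 1323 CPM with mono-IL10 and from 856 to 1158 CPM with IL10/2-Trikine. The mono-IL10 mice were above the rest. The edgeR difference of mono-IL10 from PBS was 0.27 (SE 0.10), with an adjusted p of 0.0803 that fell to 0.0319 in DESeq2, to 0.0207 with 30 components and 40 clusters and to 0.0496 without IL10/2-Trikine mouse 3. That of IL10/2-Trikine was −0.01 (SE 0.10, adjusted p = 0.978 in edgeR). Fcer1g was at 2693 CPM ± 311 (SD, n = 5) with PBS, 3426 ± 269 with mono-IL10 and 2859 ± 204 with IL10/2-Trikine, with edgeR differences of 0.36 (SE 0.10, adjusted p = 0.0196) and 0.08 (SE 0.10, adjusted p = 0.765) from PBS. Its mono-IL10 call was lost without PBS mouse 1 or 4 or mono-IL10 mouse 1 (adjusted p up to 0.0795), with cells of at least 2000 genes (adjusted p = 0.0590) and with no filter on low counts (adjusted p = 0.0898).

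In all, 2 of the 5 genes were higher in monocyte-like cells with IL10/2-Trikine than with PBS, where 5.01% of 5249 genes were called, and 4 with mono-IL10, where 9.18% were called. Between the cytokines, where 2.48% of genes were called, 1 of the 5 (Fcgr1) was lower with IL10/2-Trikine, 4 had an unadjusted p under 0.05, and DESeq2 called 0. Macrophage markers in this cluster summed to 5523 CPM on average with PBS, 6820 with mono-IL10 and 7691 with IL10/2-Trikine. With IL10/2-Trikine the T cell markers summed to 29.3 to 86.4 CPM against 3.89 to 20.8 CPM with PBS, without overlap, and the NK and neutrophil markers averaged 39.7 and 1390.4 CPM against 6.24 and 1019 CPM. The part of these markers in the results was not tested.

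The ratio of summed activating UMIs (Fcgr1, Fcgr3 and Fcgr4) to Fcgr2b UMIs within a mouse does not depend on how libraries are scaled. In monocyte-like cells it was 0.700, 0.780, 0.793, 0.831 and 0.726 in the PBS mice, 1.101, 0.940, 0.964, 1.103 and 0.998 in the mono-IL10 mice and 0.929, 0.972, 1.147, 1.016 and 1.112 in the IL10/2-Trikine mice. No mouse of either cytokine group fell into the PBS range. On the log2 scale the ratio was 0.43 higher with IL10/2-Trikine and 0.41 higher with mono-IL10 than with PBS, each with an exact permutation p of 0.00794, the smallest possible, and an adjusted p of 0.0357 over 9 tests. With cells of at least 2000 genes only, the mono-IL10 difference was 0.29 (exact test, adjusted p = 0.125).

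In macrophage-like cells, where Fcgr2b rose as well, the log2 ratio was −0.38 ± 0.12 (SD, n = 5) with PBS, −0.34 ± 0.07 with mono-IL10 and −0.28 ± 0.12 with IL10/2-Trikine. The groups overlapped, and the exact permutation tests against PBS gave adjusted p = 0.704 for mono-IL10 and 0.414 for IL10/2-Trikine. In dendritic-like cells the ratio was 0.31 higher with mono-IL10 and 0.32 higher with IL10/2-Trikine (exact test, adjusted p = 0.232 each). The IL10/2-Trikine difference ran from 0.16 to 0.73 over other settings, past the threshold only without Fcgr3 (exact test, adjusted p = 0.0238). Leaving out a mouse it ran from 0.23 to 0.44, past it only without IL10/2-Trikine mouse 5 (exact test, adjusted p = 0.0476).

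**Figure D4:**
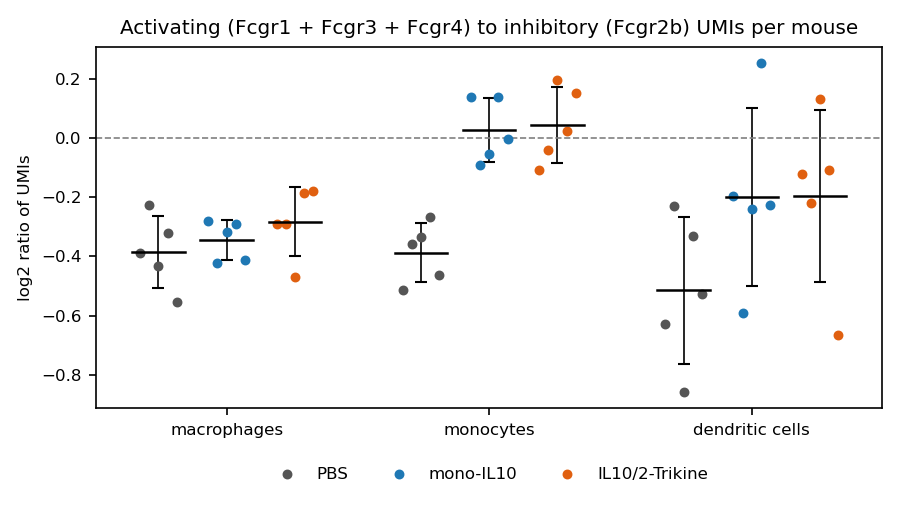
Log2 ratio of activating (Fcgr1, Fcgr3 and Fcgr4) to inhibitory (Fcgr2b) UMIs (vertical axis) in each mouse by treatment, in macrophage-like, monocyte-like and dendritic-like cells, with bars at the group mean and lines of 1 SD. In monocyte-like cells the 10 cytokine-treated mice lay above the 5 PBS mice, and in the other classes the groups overlapped.

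Dendritic-like cells held less of every member than macrophage-like cells and changed in 1. Fcgr4 was at 26.5, 64.6, 34.6, 50.1 and 49.6 CPM with PBS, at 125, 53.3, 141, 90.3 and 74.4 CPM with mono-IL10 and at 136, 88.7, 63.6, 108 and 69.2 CPM with IL10/2-Trikine. In each cytokine group 4 of the 5 mice exceeded all PBS mice. The edgeR difference from PBS was 1.16 with mono-IL10 (SE 0.24, adjusted p = 0.00823) and 1.10 with IL10/2-Trikine (SE 0.29, adjusted p = 0.0662), the latter past the threshold in DESeq2 (adjusted p = 0.0384) and, in edgeR, without PBS mouse 2 (0.0435) or mono-IL10 mouse 2 (0.0409). With the stricter cluster naming, the mono-IL10 difference was 0.64 (adjusted p = 0.342 in edgeR).

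The remaining members varied less in dendritic-like cells. Fcgr1 averaged 44.0, 54.1 and 59.2 CPM with PBS, mono-IL10 and IL10/2-Trikine, Fcgr2b 445, 489 and 481 CPM, Fcgr3 224, 280.4 and 269 CPM and Fcer1g 1211, 1395 and 1219 CPM, and all groups overlapped. With mono-IL10, where 2.99% of 7361 genes were called, 1 of the 5 was higher, and with IL10/2-Trikine, where 1.22% were called, edgeR called 0, with 1 at an unadjusted p under 0.05 and 1 called by DESeq2. Between the cytokines, where 0.937% of genes were called, edgeR and DESeq2 called 0 and 0 had an unadjusted p under 0.05. The class joined a cluster led by Plet1, Clec9a and Xcr1, one led by Ccl22, Ccr7 and Il12b and one led by Ccl17, Plet1 and Cd209a, and the mean of Fcgr4 was above PBS in all 3 with both cytokines. No share of all genes with this pattern is given beside it. Macrophage markers summed to between 3045 and 12701 CPM in these cells, and their part in the Fcgr4 difference was not tested.

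Fcer1g in neutrophil-like cells was at 3498 CPM ± 290.0 (SD, n = 5) with PBS and 3742 ± 466 with mono-IL10, and at 2555 and 2814 CPM in the 2 IL10/2-Trikine mice. The latter lay below every other mouse's neutrophil-like cells. The edgeR difference was −0.70 (SE 0.16) between IL10/2-Trikine and mono-IL10 (adjusted p = 0.0226), but the cells behind it numbered 10 and 12, and it missed the threshold without TMM scaling (−0.46, adjusted p = 0.212) and without mono-IL10 mouse 4 (adjusted p = 0.0512). Without IL10/2-Trikine mouse 1 the difference was −0.78 (edgeR, adjusted p = 0.137), with 1 mouse left in that arm, assumed to vary like the other groups. Between mono-IL10 and IL10/2-Trikine the neutrophil markers of these cells went from 42561 to 32806 CPM on average, without overlap, the macrophage markers from 1031 to 3632 CPM, the NK markers from 15.7 to 401 CPM and the mast cell markers from 10.9 to 112 CPM. The class joined 2 clusters, of which the one led by G0s2 and Siglecf held 28.4% of its cells with PBS, 49.1% with mono-IL10 and 65.6% with IL10/2-Trikine. The part of these markers and shares in the Fcer1g and Fcgr2b values was not tested. Fcer1g was the 1 member called of 4 tested in that comparison, where 1.71% of 3560 genes were called.

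Fcgr3 and Fcgr4, the activating receptors of neutrophils, overlapped between PBS and mono-IL10. Fcgr3 was at 591 CPM ± 118 with PBS and 516 ± 73.7 with mono-IL10, and Fcgr4 at 120.4 ± 21.4 and 110.2 ± 33.6 (SD, n = 5). The edgeR difference of Fcgr3 was −0.12 (SE 0.16, adjusted p = 0.784). Fcgr2b was at 230.1, 209, 382, 218 and 327 CPM with PBS and at 238, 104, 155, 120.1 and 224 CPM with mono-IL10, a log2 difference of −0.66 (SE 0.23, adjusted p = 0.137 in edgeR) that passed the threshold without mono-IL10 mouse 1 (−0.89, adjusted p = 0.0390) and with 30 components and 40 clusters (−0.84, adjusted p = 0.0316). Macrophage markers in the neutrophil-like cells averaged 3037 CPM with PBS and 1031 CPM with mono-IL10. Their part in this Fcgr2b difference was not tested. In the 2 IL10/2-Trikine mice Fcgr2b was at 95.8 and 104 CPM, from 3 UMIs each, below all PBS mice (adjusted p = 0.311 in edgeR). edgeR and DESeq2 called 0 of the 4 members with mono-IL10 against PBS, where 3.23% of genes were called and 1 member had an unadjusted p under 0.05, and 0 with IL10/2-Trikine against PBS, where 0.393% were called and 2 members had one.

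Fcgr1 did not pass the filter on low counts in neutrophil-like cells, with 3, 3, 4, 4 and 8 UMIs in the PBS mice and 2, 2, 1, 1 and 0 in the mono-IL10 mice. That was 18.4 to 49.4 CPM against 0 to 6.74 CPM, without overlap, with no edgeR test. The share of thinned cells with a UMI was 0.578% ± 0.821 with mono-IL10 and 2.81% ± 3.64 with PBS (SD, n = 5; exact permutation p = 0.246, adjusted p = 0.615). Macrophage markers moved the same way, from 856 to 5024 CPM with PBS to 853 to 1346 CPM with mono-IL10, and their part in the Fcgr1 counts was not tested.

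NK cells held much Fcer1g and little of the 4 receptors. Fcer1g was at 2499 CPM ± 189.6 (SD, n = 5) with PBS, 2873 ± 358 (n = 4) with mono-IL10 and 2419 ± 108 (n = 5) with IL10/2-Trikine. A UMI of it was found in 502 of 507 NK cells. The edgeR differences from PBS were 0.26 with mono-IL10 (SE 0.10, adjusted p = 0.341) and −0.05 with IL10/2-Trikine (SE 0.10, adjusted p = 0.874), and Fcer1g was the only member that passed the filter on low counts. edgeR and DESeq2 called 0 of 1 in all 3 comparisons, where 0.297% (mono-IL10 against PBS), 4.42% (IL10/2-Trikine against PBS) and 2.38% (IL10/2-Trikine against mono-IL10) of 2355 genes were called; the unadjusted p was under 0.05 in the first and the last of these.

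Fcgr3, the receptor through which NK cells recognise antibody-coated targets, was low in them: 29.5, 156, 98.8, 62.2 and 40.3 CPM with PBS, 45.0, 14.3, 65.5 and 56.0 CPM with mono-IL10 and 11.5, 66.3, 29.9985, 9.99 and 16.2 CPM with IL10/2-Trikine. The groups overlapped, and the gene did not pass the filter on low counts for the edgeR test. The make-up of the NK class also differed between PBS, mono-IL10 and IL10/2-Trikine. Its NK markers summed to 1971, 3193 and 6723 CPM and its mast cell markers to 172, 75.8 and 49.3 CPM on average. The part of these markers in the Fcgr3 and Fcgr2b values of NK cells was not tested. The thinned shares gave exact permutation p = 0.651, 0.486 and 0.937 in the 3 comparisons between treatments. T cells, which should lack the gene, are set beside them, but this class was no clean background. With PBS, mono-IL10 and IL10/2-Trikine its NK markers summed to 83.4, 532 and 1062 CPM on average. Its macrophage markers summed to 635, 403 and 952 CPM. The part of these markers in the T cell shares was not tested. A UMI was found in 71 of 507 NK cells as counted, and in 6.38% to 8.70% of thinned NK cells against 3.39% to 8.16% of thinned T cells, at median depths of 2561 to 5275 and 2561 to 3282.5 UMIs before thinning. By treatment the thinned shares in NK and T cells were 6.38% and 3.39% with PBS, 8.06% and 3.73% with mono-IL10 and 8.70% and 8.16% with IL10/2-Trikine (4 of 49 T cells), and this difference between the cell types was not tested. As counted they were 18.2% and 4.86%, 18.5% and 6.29%, and 8.22% and 12.3%. Fcgr2b was at 29.5, 17.4, 28.2, 15.5 and 40.3 CPM in NK cells with PBS, at 8.99, 9.56, 13.1 and 12.9 CPM with mono-IL10, below all PBS mice, and at 46.0, 11.1, 15.0, 9.99 and 27.0 CPM with IL10/2-Trikine. These values rest on only 9, 12 and 13 UMIs in all. The NK totals per mouse were 33913 to 128696 UMIs with PBS and 209302 to 333657 with mono-IL10, so few UMIs set the separation. As counted, 9.09% of NK cells held a UMI of Fcgr2b with PBS and 6.88% with mono-IL10. Its thinned share with mono-IL10 against PBS gave an exact permutation p of 0.0286, the smallest that 4 against 4 mice allow (adjusted p = 0.116). Fcgr1 was found in 1 and Fcgr4 in 5 of 507 NK cells; the 0 of 189 mono-IL10 NK cells with Fcgr1 allow a share of cells with a UMI of up to 1.59%, and the 0 of 219 IL10/2-Trikine NK cells up to 1.37%, which limits detection at this depth and not the share of cells that express the gene. For Fcer1g the thinned shares were 94.6% to 98.9% in NK cells against 16.4% to 30.6% in T cells.

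Across classes, over the mice of all 3 groups, Fcgr2b fell from macrophage-like (1435 CPM) over monocyte-like (1128), dendritic-like (472) and neutrophil-like (201) to NK cells (20.3), each step past the threshold in an exact sign-flip permutation test within mice. Fcgr3 ran in the order macrophage-like (781 CPM), monocyte-like (748), neutrophil-like (546), dendritic-like (258) and NK cells (50.1), again with every step past the threshold. For Fcgr4 (209, 153, 115, 78.3 and 1.47 CPM in the order of Fcgr3) the step from monocyte-like to neutrophil-like cells was not resolved (adjusted p = 0.291, exact test). For Fcgr1 monocyte-like (163 CPM) and macrophage-like cells (149.8) were not told apart (adjusted p = 0.180, exact test), followed by dendritic-like (52.5), neutrophil-like (19.3) and NK cells (0.620). Fcer1g had another order, neutrophil-like (3464 CPM), monocyte-like (2993), macrophage-like (2818), NK (2577) and dendritic-like cells (1275), in which macrophage-like and NK cells were not told apart (adjusted p = 0.116, exact test). Of the 20 steps 17 passed. With cells of at least 2000 genes 6 passed, but edgeR then had no fit in neutrophil-like or NK cells. In monocyte-like cells it then had none with IL10/2-Trikine. The 6 and the 17 therefore do not rest on the same mice. The order pools groups whose levels differ, with only 2 IL10/2-Trikine mice for neutrophil-like cells, and it turned within groups. In PBS mice Fcgr3 averaged 591 CPM in neutrophil-like and 581 in monocyte-like cells, and Fcgr4 120.4 CPM in neutrophil-like, 119.9 in macrophage-like and 92.3 in monocyte-like cells. With IL10/2-Trikine Fcer1g averaged 2685 CPM in neutrophil-like cells, below macrophage-like (2881) and monocyte-like cells (2859).

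Whether a treatment moved a gene by a different amount in macrophage-like cells than in another class was tested within mice on the log2(CPM + 1) scale. None of the 60 comparisons passed after adjustment, while 19 had an unadjusted exact permutation p under 0.05 and 9 the smallest possible p of 0.00794, with an adjusted p of 0.0529. With a pseudocount of 5, or with at least 5 cells per mouse, 10 passed. Over 60 tests none at the smallest p could pass alone, so these counts depend on how many tests share it. The 9 at the smallest p include Fcgr1 against neutrophil-like and NK cells and Fcgr2b against NK cells. In those classes these genes did not pass the filter on low counts. Among the 9, the difference of Fcgr2b between IL10/2-Trikine and PBS was larger in macrophage-like than in monocyte-like cells by 0.50, and that between mono-IL10 and PBS by 0.33. IL10/2-Trikine minus mono-IL10 was 0.52 higher for Fcgr1 in macrophage-like than in monocyte-like cells, the levels being alike in the former (167 and 168 CPM) and lower with IL10/2-Trikine in the latter (142 and 207 CPM). Mono-IL10 minus PBS was 1.203 higher for Fcgr4 in macrophage-like than in neutrophil-like cells.

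Genes with the most similar pattern were sought over 71 profiles of mice and classes and 7979 genes with a mean of at least 10 CPM. The profiles share libraries and the classes differ in many genes, so the correlations are descriptions. Over all profiles Fcgr4 was nearest to Pirb (Pearson r = 0.962), C5ar1 (0.960) and Gpr35 (0.957), of which C5ar1 encodes a complement receptor. Fcgr1 was nearest to Gab1 (0.958), Nrg1 (0.945) and Ctss (0.944), Fcgr2b to Ctss (0.962), Gab1 (0.962) and Msr1 (0.961), and Fcgr3 to Sirpb1c (0.934), Thbs1 (0.930) and Cstb (0.927). Fcer1g was less like any gene, with Nt5e (0.844), Tyrobp (0.770) and H2aj (0.763) first. Within the 15 macrophage-like profiles, Fcgr1 and Fcgr4 went together (r = 0.952) and so did Fcgr2b and Fcgr3 (r = 0.960), while Fcgr1 and Fcgr2b were less close (r = 0.816); Fcgr2b and Fcgr3 share sequence at their 5′ ends as given above. Outside the members, Fcgr1 was nearest there to Ifitm2 (0.926), C1qa (0.923) and BC031181 (0.920), Fcgr4 to ENSMUSG00000120851 (0.938), Cd244a (0.933) and Spon1 (0.925), Fcgr2b to Hebp1 (0.971), Ctsl (0.969) and Gja1 (0.964), Fcgr3 to Fabp5 (0.962), Ecm1 (0.957) and Ctsl (0.949), and Fcer1g to Tyrobp (0.979).

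The genes that carry the signal of these receptors were taken from a list of 25 kinases, adaptors, effectors and inhibitors. In macrophage-like cells all 25 were tested, and with IL10/2-Trikine against PBS 5 were higher and 3 lower, beside 8.57% and 8.35% of all genes. Syk, the kinase that binds FcRγ, was at 359 CPM with PBS and 273 CPM with IL10/2-Trikine, a log2 difference of −0.40 (SE 0.06, adjusted p = 0.000234 in edgeR), whereas with mono-IL10 it was at 336 CPM and differed by −0.01 (adjusted p = 0.899 in edgeR). Dok3, an adaptor that restrains such signals, was higher with both, by 0.49 (adjusted p = 9.73e-05) and 0.50 (adjusted p = 1.72e-05) in edgeR. Ptpn6, the phosphatase SHP-1, was higher with IL10/2-Trikine by 0.40 (adjusted p = 0.00202) and differed by 0.10 with mono-IL10 (adjusted p = 0.344 in edgeR), and Inpp5d, the SHIP-1 that FcγRIIB recruits, differed by −0.04 and 0.05 (adjusted p = 0.691 and 0.567 in edgeR).

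With mono-IL10 against PBS, 6 of the 25 signaling genes were higher and 1 lower in macrophage-like cells, beside 12.6% and 12.4% of all genes. Tyrobp, the DAP12 adaptor that resembles FcRγ, was at 2260 CPM with PBS, 2723 CPM with mono-IL10 and 2632 CPM with IL10/2-Trikine, with edgeR differences of 0.35 (SE 0.10, adjusted p = 0.0163) and 0.21 (SE 0.10, adjusted p = 0.173). Between the cytokines 3 were higher and 3 lower, beside 4.37% and 6.34% of all genes. The lower ones with IL10/2-Trikine were Syk (−0.38, adjusted p = 0.000704), the exchange factor gene Vav3 (−0.54, adjusted p = 0.000864) and the adaptor gene Gab2 (−0.33, adjusted p = 0.00299) in edgeR. The median over the list was −0.04, −0.01 and 0.00 in the 3 comparisons, against 0.00, −0.01 and 0.01 over all genes.

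In monocyte-like cells 23 of the 25 were tested, of which 2 were higher and 1 lower with IL10/2-Trikine against PBS, beside 2.42% and 2.59% of all genes, and 1 and 1 with mono-IL10, beside 4.76% and 4.42%. Between the cytokines edgeR called 0, beside 0.724% and 1.75%. Prkcd, a protein kinase C gene, was lower with both, by −0.74 (adjusted p = 0.00798) and −0.77 (adjusted p = 0.000512) in edgeR. Ptpn6 was higher with IL10/2-Trikine (0.63, adjusted p = 0.0231) and Cblb, which encodes a ubiquitin ligase, with mono-IL10 (0.96, adjusted p = 0.00859). In dendritic-like cells 1 of 24 was higher with mono-IL10 (Tyrobp, 0.45, adjusted p = 0.0192 in edgeR), beside 2.09% of all genes, and in neutrophil-like cells 1 of 20 was lower with IL10/2-Trikine than with mono-IL10 (Tyrobp, −0.95, adjusted p = 0.00134 in edgeR), beside 1.32% of all genes. Tyrobp was also the 1 of 12 called in NK cells, by 0.52 with IL10/2-Trikine (adjusted p = 0.00896) and 0.64 with mono-IL10 (adjusted p = 0.00698) against PBS in edgeR, where 2.46% and 0.212% of all genes were higher. With PBS, mono-IL10 and IL10/2-Trikine the NK markers of these cells summed to 1971, 3193 and 6723 CPM and the mast cell markers to 172, 75.8 and 49.3 CPM on average, and cells annotated as cycling made up 3.03%, 4.76% and 13.7%; their part in the Tyrobp difference was not tested. In these 3 classes edgeR called no other gene of the list.

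Of 12 other Fc receptor genes, 5 were tested in macrophage-like cells, and 2 were higher with each cytokine than with PBS, beside 8.57% of all genes with IL10/2-Trikine and 12.6% with mono-IL10. Between the cytokines 0 were higher and 1 lower with IL10/2-Trikine, beside 4.37% and 6.34% of all genes. Fcgrt, the neonatal Fc receptor that returns IgG and albumin to the cell surface, was at 217 CPM with PBS, 487 CPM with mono-IL10 and 486 CPM with IL10/2-Trikine, higher than PBS by 1.15 (SE 0.15, adjusted p = 4.28e-05) with IL10/2-Trikine and 1.25 (SE 0.15, adjusted p = 7.39e-06) with mono-IL10 in edgeR. Fcrlb, an Fc receptor-like gene, was at 18.2, 37.5 and 27.3 CPM with PBS, mono-IL10 and IL10/2-Trikine, higher with mono-IL10 by 1.12 (adjusted p = 7.67e-07 in edgeR). In monocyte-like cells Fcgrt averaged 37.7, 46.6 and 75.5 CPM, the last above PBS by 1.04 (adjusted p = 0.0210 in edgeR), and Fcrlb was higher with mono-IL10 by 1.02 (adjusted p = 0.000587 in edgeR). Fcgrt averaged 107, 141 and 164 CPM in dendritic-like cells and 21.2, 23.2 and 101 CPM in neutrophil-like cells, past the threshold in neither, and did not pass the filter in NK cells.

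Tumor-epithelial-like and T cells were taken as the background of the assay, though the T cells also held NK and macrophage markers. In the T cells of IL10/2-Trikine mice these summed to 81.4 to 2578 and 430 to 1939 CPM, and their part in the values below was not tested. In tumor-epithelial-like cells the mean level of a member was 0.451% to 2.42% of that in macrophage-like cells of the same treatment. The median depth of tumor-epithelial-like cells was 10066 to 34973.5 UMIs, against 2841 to 6286.5 in macrophage-like and 2561 to 3282.5 in T cells. In T cells the mean level of a member was 0% to 10.9% of that in macrophage-like cells. Whether the share seen in the deeper cells holds for classes of shallower cells was not tested. In T cells Fcgr3 averaged 16.3 CPM with PBS and 23.4 CPM with mono-IL10, and was at 145, 0 and 27.1 CPM in the 3 IL10/2-Trikine mice. Fcgr2b averaged 27.6 and 20.2 CPM there with PBS and mono-IL10, beside 26.2 and 11.1 CPM in NK cells, and was at 163, 0 and 0 CPM in the 3 IL10/2-Trikine mice.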

How the data were processed

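Leukocytes from tumors of 3 treatment groups of 5 hashtagged mice were sequenced as 1 droplet library per treatment. The deposited UMI counts per gene and cell are raw counts that the authors made with Cell Ranger 9.0.1 on GRCm39, and the submitters' processing notes also name Seurat 5.1.0 and DESeq2 1.46.0. The deposited cell table of the authors gave the names of NK and T cells, and its 7858 cells of another group were not used. A 5′ UMI count is not scaled by gene length, and class totals per mouse set the precision: 1069156 to 13484665 UMIs in macrophage-like cells but 28782 to 31308 in the neutrophil-like cells of IL10/2-Trikine mice. Intervals of fold changes cover the spread between mice and are approximate. They were derived from the edgeR F statistic with a normal quantile, so they are narrower than the test allows. For Fcgr3 in dendritic-like cells, mono-IL10 against PBS, the interval was 1.01 to 1.67 at an unadjusted edgeR p of 0.0532. Limits at a count of 0 cover counting error only.

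The study's stated filter was applied, which asks for 1000 detected genes or more and a mitochondrial share of UMIs no higher than 10%. Mice were called from hashtag counts with HTODemux of Seurat 5.3.0 (quantile 0.99), and hashtag doublets and cells with no hashtag were left out; the call was the same as the authors' in 93.2% to 98.8% of shared cells and named another mouse in 0. Doublets within a mouse were not removed. Cells were clustered without the 5 genes (2000 variable genes, 40 components, 60 clusters; scikit-learn 1.9.0), and clusters were named from marker lists; the minimum naming score was lowered to 0.15 after the clusters had been inspected, and 17 clusters stayed unnamed. UMIs were summed per mouse and class (at least 10 cells) and tested with edgeR 4.0.16 (TMM, filterByExpr, quasi-likelihood, all 3 groups in 1 fit, Benjamini-Hochberg, threshold 0.05) in R 4.3.3, with DESeq2 1.42.0 as an alternative. Ratios, shares and differences between classes were tested by two-sided exact permutation over mice (Python 3.11.15 with numpy 2.4.6). With 5 mice per group or fewer, none of these tests could pass alone after adjustment. The steps were tested on simulated data.

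All 5 genes are given in every class. Of the pathway lists, at most 3 genes past the threshold with the smallest adjusted p are named per class and comparison, besides Tyrobp, Syk, Inpp5d and Ptpn6 in macrophage-like cells and Fcgrt throughout, and for each member the 3 genes most alike in pattern, except that for Fcer1g within macrophage-like cells only the first is reported here. The members and lists were chosen with earlier results of these data known. Mice are separate animals, but those of a treatment share 1 library, so p-values measure the spread between mice and not between libraries. Alternatives were other normalizations, filters, clusterings, depths and tests and the leaving out of each mouse. Promoter sequences are from RefSeq (GRCm38.p6), and no coordinate was moved between builds.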

Additional observations from a re-analysis of the deposited data

Results flagged for a closer look

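In 5 of 56 groups of mice, 1 mouse lay farther from the rest than Dixon's critical value allows, where chance gives about 1 in 20 groups. Fcer1g in macrophage-like cells stood at 3033 CPM in PBS mouse 2, against 2251 to 2475 CPM in the other PBS mice. Fcgr1 in monocyte-like cells stood at 152 CPM in IL10/2-Trikine mouse 4, against 137 to 141 CPM in the others. In dendritic-like cells Fcgr1 stood at 61.1 CPM in PBS mouse 2 (37.5 to 43.6 CPM in the others) and at 94.0 CPM in IL10/2-Trikine mouse 1 (47.5 to 54.5 CPM), and Fcgr2b at 373 CPM in PBS mouse 4 (454 to 471 CPM). The causes were not tested.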

How the results depend on the processing

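Of single-gene differences, 520 of 556 kept their direction and side of the threshold when 1 mouse was left out. Under the other alternatives 378 of 414 did. The cause was not tested for those that did not. Differences not called that stayed so count as kept, and not all of the 60 member comparisons tested are among them. Of the 18 calls, some were lost without 1 mouse. These were Fcer1g in macrophage-like and monocyte-like cells with mono-IL10 against PBS, and in neutrophil-like cells between the cytokines. In monocyte-like cells they were Fcgr1 between the cytokines and Fcgr3 with IL10/2-Trikine against PBS. Members called over the 3 comparisons numbered 7 in monocyte-like cells, 3 after thinning to equal totals and 5 to 8 leaving out a mouse. In macrophage-like cells 8 to 9 were called leaving out a mouse. In neutrophil-like cells 1 was called, against 2 with 30 components and 40 clusters, 4 with no filter and 0 without TMM, with only the groups compared or thinned, and 0 to 2 leaving out a mouse (2 without mono-IL10 mouse 1, 0 without mono-IL10 mouse 4). In dendritic-like cells 1 was called, against 2 by DESeq2, with at least 2000 genes, without TMM or with only the groups compared, 3 with no filter and 0 at a naming score of 0.25 (chosen after seeing the data), and 1 to 2 leaving out a mouse (2 without PBS mouse 2 or mono-IL10 mouse 2). In NK cells 0 were called by edgeR, and 1 with NK cells named from markers.

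The hashtag numbers share only a number: correlations of same-numbered mice ran from -0.14 to 0.21. With the number as a replicate block, 0 members were called in neutrophil-like cells (Fcer1g between the cytokines, −0.69, adjusted p = 0.107 in edgeR), and no other count of calls moved.

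Differences close to 0 changed sign. For IL10/2-Trikine against PBS, Fcgr2b in monocyte-like cells was 0.026 with 30 components and 40 clusters and 0.0025 without TMM, Fcgr1 there 0.18 with 30 components and 40 clusters, Fcer1g there −0.036 with no filter, Fcer1g in NK cells 0.066 with no filter, and Fcer1g in dendritic-like cells 0.25 with at least 2000 genes, 0.041 without TMM, 0.15 at a naming score of 0.25 and 0.13 thinned. Leaving out a mouse, these ran from −0.16 to 0.11 (Fcer1g, dendritic-like), −0.093 to 0.066 (Fcgr1, monocyte-like), −0.089 to 0.24 (Fcgr2b, dendritic-like) and −0.056 to 0.050 (Fcgr2b, monocyte-like).

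The log2 ratio between the cytokines was −0.011 in monocyte-like cells without Fcgr3 and −0.35 in dendritic-like cells at a naming score of 0.25. The ratio against PBS was 0.73 in dendritic-like cells with IL10/2-Trikine without Fcgr3 (adjusted p = 0.0238, exact test) and 0.29 in monocyte-like cells with mono-IL10 and at least 2000 genes (adjusted p = 0.125, exact test). Leaving out a mouse, it ran from 0.23 to 0.44 (dendritic-like, IL10/2-Trikine against PBS; the exact adjusted p was 0.0476 without IL10/2-Trikine mouse 5), −0.094 to 0.12 (dendritic-like, between cytokines), −0.0024 to 0.079 (macrophage-like, mono-IL10 against PBS) and −0.020 to 0.057 (monocyte-like, between cytokines). Differences between classes past the threshold numbered 10 in place of 0 with a pseudocount of 5 or at least 5 cells per mouse. The resolved steps between classes numbered 6 in place of 17 with at least 2000 genes, on fewer mice as given above. The thinned shares past the threshold numbered 0 in place of 12 at 3000 UMIs.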
